A study of Rattus norvegicus with 68 samples.

Results

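The genes described here are those of the motile cilium and of the cells that carry it: 6 regulators that switch on ciliated cell differentiation and 49 structural, motor, transport and assembly genes. They were chosen by name and known function, not by a measured value, though earlier results of these data were known at the time. Of the 55 genes listed, 35 had a probe set that named them alone, 5 of the regulators and 30 of the others, among 14217 genes on the array. The remaining 20 members had no such probe set and are not analysed here: Mcidas, Dnah5, Dnah9, Dnah11, Dnai2, Spag6, Spag17, Rsph4a, Ccdc39, Ccdc114, Hydin, Ak8, Lrrc6, Enkur, Iqcg, Kif9, Kif27, Capsl, Pifo and Wdr16. The outer dynein arm and the central pair are therefore represented by 1 and 2 genes. No filter on signal was applied, so all 35 entered every test.

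Formaldehyde, an irritant gas, was inhaled by male F344/CrlBR rats aged 8 weeks at the start, in whole-body chambers, for 6 h a day on 5 days a week. The 68 arrays, each from 1 rat, form 17 groups of 4: at 5 d, 4 w and 13 w there are groups at 0.7, 2, 6, 10 or 15 ppm, and at 5 d and 13 w also at 0 ppm. Proteases lifted the epithelium from level II of the nose, which the series text describes as mostly transitional with some respiratory epithelium, and per the labels the maxilloturbinate and the olfactory lining were discarded. Exposed and 0 ppm rats shared strain, sex and tissue, and the 0 ppm animals breathed no formaldehyde. No 0 ppm array of 4 w was analysed here, so the 4 w groups were set against 0.7 ppm, which is itself an exposure. Titles of 0 ppm samples carry a code that differs from the exposed samples and between 5 d and 13 w, with no batch stated. Any difference behind that code cannot be told apart from dose in contrasts with 0 ppm, or from time between the 0 ppm groups. All exposed samples carry the same code.

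A motile cilium is built on an axoneme of doublet microtubules around a central pair. Outer and inner dynein arms slide the doublets, radial spokes and the nexin link regulate the sliding, tektins lie inside the doublets, and intraflagellar transport carries parts to the tip. In the differentiating ciliated cell, Mcidas, Ccno and Myb act early, when basal bodies multiply, and Foxj1 with the RFX factors Rfx2 and Rfx3 then switches on the axonemal genes. RFX factors bind a DNA element called the X-box. In the nose, beating cilia move mucus over the respiratory epithelium.

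Signals are log2 values after RMA (robust multi-array averaging), and changes are differences of group means with their SE from 1 limma fit over all arrays. A gene was called lower or higher at a Benjamini-Hochberg adjusted p under 0.05, adjusted over all 14217 genes. Array quality moved with exposure in part. The RNA integrity number, on record for 63 arrays, averaged 8.3 ± 0.33 at 15 ppm and 7.7 ± 0.29 at 0 ppm at 5 d (SD, n = 4 each), and 8.9 ± 0.36 at 15 ppm against 7.6 ± 0.23 at 0 ppm at 13 w (SD, n = 3 each). The 3′ less 5′ signal of actin, which is larger in more degraded RNA, was 2.47 ± 0.080 at 15 ppm and 1.71 ± 0.20 at 0 ppm at 5 d, without overlap, and 2.61 ± 0.17 at 6 ppm (SD, n = 4 each). It was 1.79 ± 0.26 at 15 ppm and 1.84 ± 0.35 at 0.7 ppm at 4 w, and 1.71 ± 0.087 at 15 ppm and 1.58 ± 0.11 at 0 ppm at 13 w (SD, n = 4 each). The lowest RNA integrity number, 5.4, was that of 1 animal of 2 ppm at 4 w. Arrays within a group correlated at 0.977 to 0.996. The 6 measured markers of ciliated cells, Foxj1, Dnai1, Tekt1, Rsph1, Ccdc113 and Tppp3, are all members, so they give no separate check. Their mean signal was 10.48 ± 0.29 at 0 ppm at 5 d (SD, n = 4).

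The promoters of 6 members are shown because they carry the contrast described below: Ak7, Tekt4, Rfx3 and Dnai1 were lower at 15 ppm, while Ccno and Stoml2 were higher, in all 6 cases at 13 w. Each runs from 250 bases before to 50 bases after the annotated start, in RefSeq's GRCr8 assembly, 5′ to 3′ on the gene's strand. Capitals mark the X-box half-site GTTGCC on either strand and, in Ccno, the full X-box that overlaps it.
Ak7 promoter (chr6:130376354-130376653, + strand): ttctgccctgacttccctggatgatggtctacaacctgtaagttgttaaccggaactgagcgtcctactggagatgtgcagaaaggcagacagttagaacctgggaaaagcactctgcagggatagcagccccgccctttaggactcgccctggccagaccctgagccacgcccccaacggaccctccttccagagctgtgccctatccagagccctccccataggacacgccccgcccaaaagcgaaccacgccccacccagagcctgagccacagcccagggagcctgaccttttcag
Tekt4 promoter (chr10:14992034-14992333, + strand): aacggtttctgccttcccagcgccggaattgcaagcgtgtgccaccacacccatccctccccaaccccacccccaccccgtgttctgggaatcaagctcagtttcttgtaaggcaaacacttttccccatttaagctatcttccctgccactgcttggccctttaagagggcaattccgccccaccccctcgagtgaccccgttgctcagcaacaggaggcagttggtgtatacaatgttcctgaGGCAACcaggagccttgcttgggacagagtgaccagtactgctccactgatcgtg
Rfx3 promoter (chr1:235122373-235122672, - strand): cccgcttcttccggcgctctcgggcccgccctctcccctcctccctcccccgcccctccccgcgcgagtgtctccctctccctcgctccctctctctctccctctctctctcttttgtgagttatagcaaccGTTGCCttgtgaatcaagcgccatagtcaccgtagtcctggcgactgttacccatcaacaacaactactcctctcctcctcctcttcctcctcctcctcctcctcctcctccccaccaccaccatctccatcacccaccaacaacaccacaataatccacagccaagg
Dnai1 promoter (chr5:61525829-61526128, + strand): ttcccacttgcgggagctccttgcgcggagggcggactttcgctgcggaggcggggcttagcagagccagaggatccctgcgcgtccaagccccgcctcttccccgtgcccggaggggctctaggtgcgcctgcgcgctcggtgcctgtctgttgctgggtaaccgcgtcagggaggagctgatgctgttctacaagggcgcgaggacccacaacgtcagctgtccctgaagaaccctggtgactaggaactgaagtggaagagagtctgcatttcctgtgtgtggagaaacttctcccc
Ccno promoter (chr2:46363824-46364123, + strand): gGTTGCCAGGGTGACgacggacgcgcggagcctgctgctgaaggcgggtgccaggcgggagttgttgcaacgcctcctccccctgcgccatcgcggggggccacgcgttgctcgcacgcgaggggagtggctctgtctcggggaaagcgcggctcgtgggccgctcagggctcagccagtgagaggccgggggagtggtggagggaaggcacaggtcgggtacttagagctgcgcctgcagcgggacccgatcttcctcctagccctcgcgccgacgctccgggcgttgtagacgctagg
Stoml2 promoter (chr5:62055590-62055889, - strand): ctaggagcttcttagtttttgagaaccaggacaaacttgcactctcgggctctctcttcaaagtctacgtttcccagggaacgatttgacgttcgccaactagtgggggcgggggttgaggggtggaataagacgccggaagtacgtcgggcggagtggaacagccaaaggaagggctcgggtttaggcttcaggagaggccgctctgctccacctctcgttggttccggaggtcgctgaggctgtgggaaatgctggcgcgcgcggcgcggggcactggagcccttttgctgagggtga
Promoter sequences were matched for 28 of the 35 members. The full X-box was searched on both strands as 1 pattern, with a gap of fixed length between its half-sites. That pattern was found in 1 of 28 (3.57%), that of Ccno, and in 0.69% of all 33469 promoters of this length. Forms with a gap of another length were not searched, so promoters without the pattern may still hold such a form. The X-box half-site GTTGCC was in 14 of these 28 promoters, against 12.2% of all promoters. The forkhead core TGTTTAC, the kind of element bound by the Foxj1 family, was in 1 of 28 (3.57%), against 3.78%. The CCAAT box was in 11 of 28 (39.3%), against 37.5%. These matches are a description of letters in the window and were set against no test. The half-site was present in Tekt4 and Rfx3, which were lower, and in Ccno, which was higher, and was in neither Ak7, Dnai1 nor Stoml2. Only the letters GTTGCC were searched as a half-site, so promoters without them may hold other forms of it.

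Most ciliated cell genes were lower at 15 ppm at each of the 3 times. At 13 w, 29 of 35 fell and 2 rose, where 20.6% of all genes were lower and 23.5% higher. The median change of the members was -0.69, which is 1.62-fold lower, and all genes together had a median near 0. At 4 w against 0.7 ppm, 22 fell and 2 rose, beside 16.1% of all genes lower and 21.3% higher, with a median of -0.46. At 5 d, 18 fell and 2 rose, beside 19.5% of all genes lower and 18.3% higher, with a median of -0.44. The count at 5 d was 6 lower and 2 higher without animal 356 of 15 ppm, and 10 lower and 2 higher without animal 210 of 0 ppm. At 4 w it was 12 lower and 1 higher without animal 243 of 0.7 ppm, and 13 lower and 2 higher without animal 369 of 15 ppm. Counts with 1 animal left out, here and below, are given without the share of all genes in the same fit. They are therefore not read against a background. With the mean of leukocyte markers as a covariate, 0 members fell at 5 d, 7 at 4 w and 30 at 13 w (8.27%, 13.1% and 21.0% of all genes). With the RNA integrity number as a covariate, 12, 19 and 14 fell at 5 d, 4 w and 13 w (18.2%, 15.4% and 15.4% of all genes), and the 13 w median was -0.51. On the 63 arrays of that fit, the 13 w median was -0.67 without the covariate. The number at 13 w ran from 8.6 to 9.3 at 15 ppm and from 7.3 to 7.7 at 0 ppm. At 4 w it ran from 8.4 to 9.1 at 15 ppm and from 8.1 to 8.3 at 0.7 ppm. Without overlap, the number cannot be told apart from dose at 4 w and 13 w. With the actin difference as a covariate, the median changes at 5 d, 4 w and 13 w were -0.47, -0.46 and -0.69. At 5 d the actin difference did not overlap between 15 ppm and 0 ppm, so it cannot be told apart from dose there. With 0.7 ppm as the reference in place of 0 ppm, 7 fell at 5 d and 30 at 13 w (16.8% and 21.0% of all genes). In these bulk samples, fewer ciliated cells and less RNA per ciliated cell cannot be told apart.

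By single animals, all 4 at 15 ppm lay below all 4 of the reference for 23 members at 13 w, for 21 at 4 w and for 5 at 5 d. The same held for 18.5%, 15.4% and 15.8% of all genes in that order of times, so at 5 d the share of members was close to the background by this count. The mean signal of the 30 structural genes ran from 8.51 to 8.99 at 15 ppm and from 9.15 to 9.55 at 0 ppm at 13 w, without overlap. The 4 w animals ran from 8.93 to 9.20 at 15 ppm and from 9.34 to 9.67 at 0.7 ppm, again without overlap. The 5 d groups overlapped, with 8.73 to 9.50 at 15 ppm and 9.36 to 9.83 at 0 ppm. Animal 356 held the lowest value of the 15 ppm group at 5 d.

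**Figure D1:**
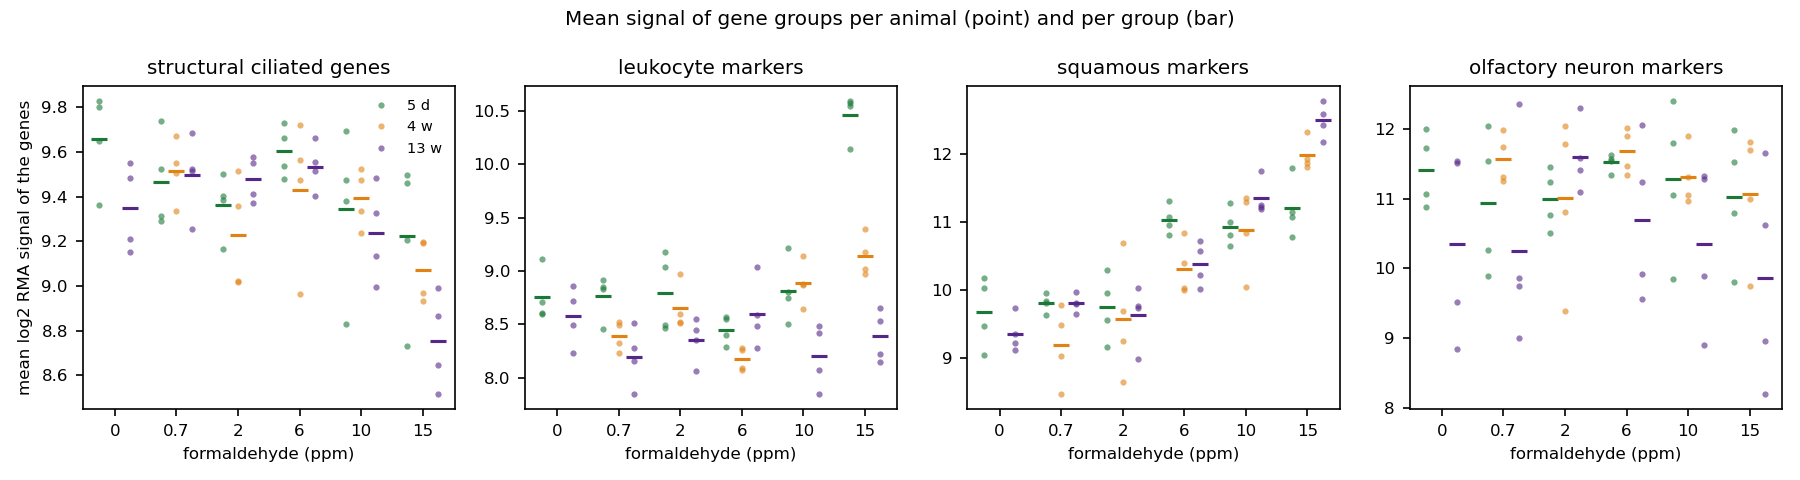
Mean log2 signal of 4 gene groups (y axes) by formaldehyde dose (x axes, ppm) for 5 d, 4 w and 13 w, with 1 point per animal and a bar at each group mean. The structural ciliated genes run from 8.51 to 8.99 at 15 ppm at 13 w, the leukocyte markers average 10.46 at 15 ppm at 5 d, and the squamous markers average 12.49 at 15 ppm at 13 w.

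In all, 15 members were lower at 15 ppm at all 3 times, 10 at 2 times, 4 at 1 time and 6 at none. Of all genes, 10.4% were lower at all 3 times, 6.15% at 2, 12.6% at 1 and 70.8% at none. Those 6 members were Ccno, Stoml2, Tubb4b, Mns1, Stk36 and Drc1. Ccno and Stoml2 were higher at all 3 times, as were 11.7% of all genes.

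Of the 5 measured regulators, 4 fell at 13 w and 1 rose. Foxj1, the forkhead factor of motile ciliogenesis, had signals of 9.33, 9.57, 9.76 and 9.96 at 15 ppm and 10.29, 10.48, 10.66 and 10.79 at 0 ppm at 13 w. The 2 groups did not overlap, and the change was -0.90 ± 0.17 (SE), 1.86-fold lower, with an adjusted p of 1.3e-05 by limma. At 4 w Foxj1 ran 9.84, 9.91, 10.36 and 10.39 at 15 ppm, against 10.32, 10.63, 10.66 and 10.71 at 0.7 ppm. There the groups overlapped in 1 reference animal, and Foxj1 fell by 0.45 ± 0.17 (SE, limma adjusted p = 0.029). At 5 d the values were 9.96, 10.40, 10.45 and 10.51 at 15 ppm and 10.27, 10.72, 10.78 and 10.90 at 0 ppm. That difference of -0.34 ± 0.17 (SE) did not pass, with a limma adjusted p of 0.111.

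Rfx2, which binds the X-box beside Rfx3, fell at every time. Its signals at 5 d were 7.63, 8.11, 8.55 and 8.60 at 15 ppm and 8.46, 8.79, 9.10 and 9.13 at 0 ppm, for a change of -0.65 ± 0.17 (SE, limma adjusted p = 0.00209). At 4 w they were 8.23, 8.23, 8.31 and 8.48 at 15 ppm, against 8.52, 8.85, 9.05 and 9.07 at 0.7 ppm. The 13 w groups held 8.04, 8.09, 8.17 and 8.29 at 15 ppm and 8.46, 8.65, 8.84 and 8.99 at 0 ppm. At 4 w and 13 w no animal of one group reached the other, and Rfx2 fell by 0.56 ± 0.17 and by 0.58 ± 0.17 (SE, limma adjusted p = 0.00771 and 0.00449).

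Rfx3, the other RFX factor measured, varied widely between animals, and its SE of 0.35 was the largest among the regulators. At 13 w it had 7.57, 7.63, 8.22 and 9.15 at 15 ppm and 8.63, 8.91, 9.24 and 9.44 at 0 ppm. Its groups overlapped in 1 animal at 15 ppm, and the change of -0.91 ± 0.35 (SE) was called (limma adjusted p = 0.0313). At 4 w it had 7.68, 9.01, 9.40 and 9.49 at 15 ppm, against 9.55, 9.69, 9.78 and 9.78 at 0.7 ppm. All 4 exposed animals were lower there, yet the change of -0.80 ± 0.35 (SE) was not called (limma adjusted p = 0.0702). At 5 d Rfx3 changed by -0.38 ± 0.35 (SE, limma adjusted p = 0.439). A second, dimmer Rfx3 probe set was called at none of the 3 times.

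Myb, a transcription factor of early ciliated cell differentiation, had 8.46, 8.62, 8.91 and 9.27 at 15 ppm at 4 w and 9.67, 9.69, 9.75 and 9.85 at 0.7 ppm. Every exposed animal lay below every 0.7 ppm animal, and Myb fell by 0.92 ± 0.24 (SE, limma adjusted p = 0.00149), 1.9-fold. At 13 w it had 8.55, 8.93, 8.98 and 9.16 at 15 ppm, against 9.29, 9.48, 9.48 and 9.80 at 0 ppm. The groups again stood apart, and Myb fell by 0.61 ± 0.24 (SE, limma adjusted p = 0.0336). At 5 d it had 8.68, 8.98, 9.42 and 9.50 at 15 ppm and 8.83, 9.17, 9.72 and 10.09 at 0 ppm, a change of -0.31 ± 0.24 (SE) that was not called. Myb is also expressed in dividing and blood-forming cells, whose share in its signal was not tested.

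Ccno, an atypical cyclin needed for basal body multiplication, moved the other way. At 13 w it had 7.93, 8.07, 8.25 and 8.59 at 15 ppm and 6.81, 7.21, 7.21 and 7.43 at 0 ppm. All exposed animals exceeded all 0 ppm animals, and Ccno rose by 1.05 ± 0.18 (SE, limma adjusted p = 4.2e-06), 2.06-fold. It also had 8.50, 8.68, 8.71 and 9.14 at 15 ppm against 7.71, 8.05, 8.13 and 8.18 at 0 ppm at 5 d, and rose by 0.74 ± 0.18 (SE, limma adjusted p = 0.00092). At 4 w the values were 8.17, 8.17, 8.27 and 8.34 at 15 ppm and 6.80, 7.68, 7.86 and 7.89 at 0.7 ppm, again without overlap (0.68 ± 0.18 SE, limma adjusted p = 0.00247).

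Ccno was the member with the most calls below 15 ppm in the upward direction. At 13 w it had 7.73, 7.76, 7.83 and 7.90 at 6 ppm and 7.98, 8.05, 8.33 and 8.42 at 10 ppm, above the highest 0 ppm animal in every case. It rose there by 0.64 ± 0.18 at 6 ppm and by 1.03 ± 0.18 at 10 ppm (SE, limma adjusted p = 0.0154 and 1.6e-05). At 4 w it rose by 1.11 ± 0.18 at 10 ppm over 0.7 ppm (SE, limma adjusted p = 1.4e-05). Among 0 ppm rats, Ccno was lower at 13 w than at 5 d by 0.85 ± 0.18 (SE, limma adjusted p = 0.00596), the 1 member called in that comparison. A second Ccno probe set of lower signal was called at none of the 3 times at 15 ppm, with changes of -0.17, 0.10 and 0.37 at 5 d, 4 w and 13 w.

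**Figure D2:**
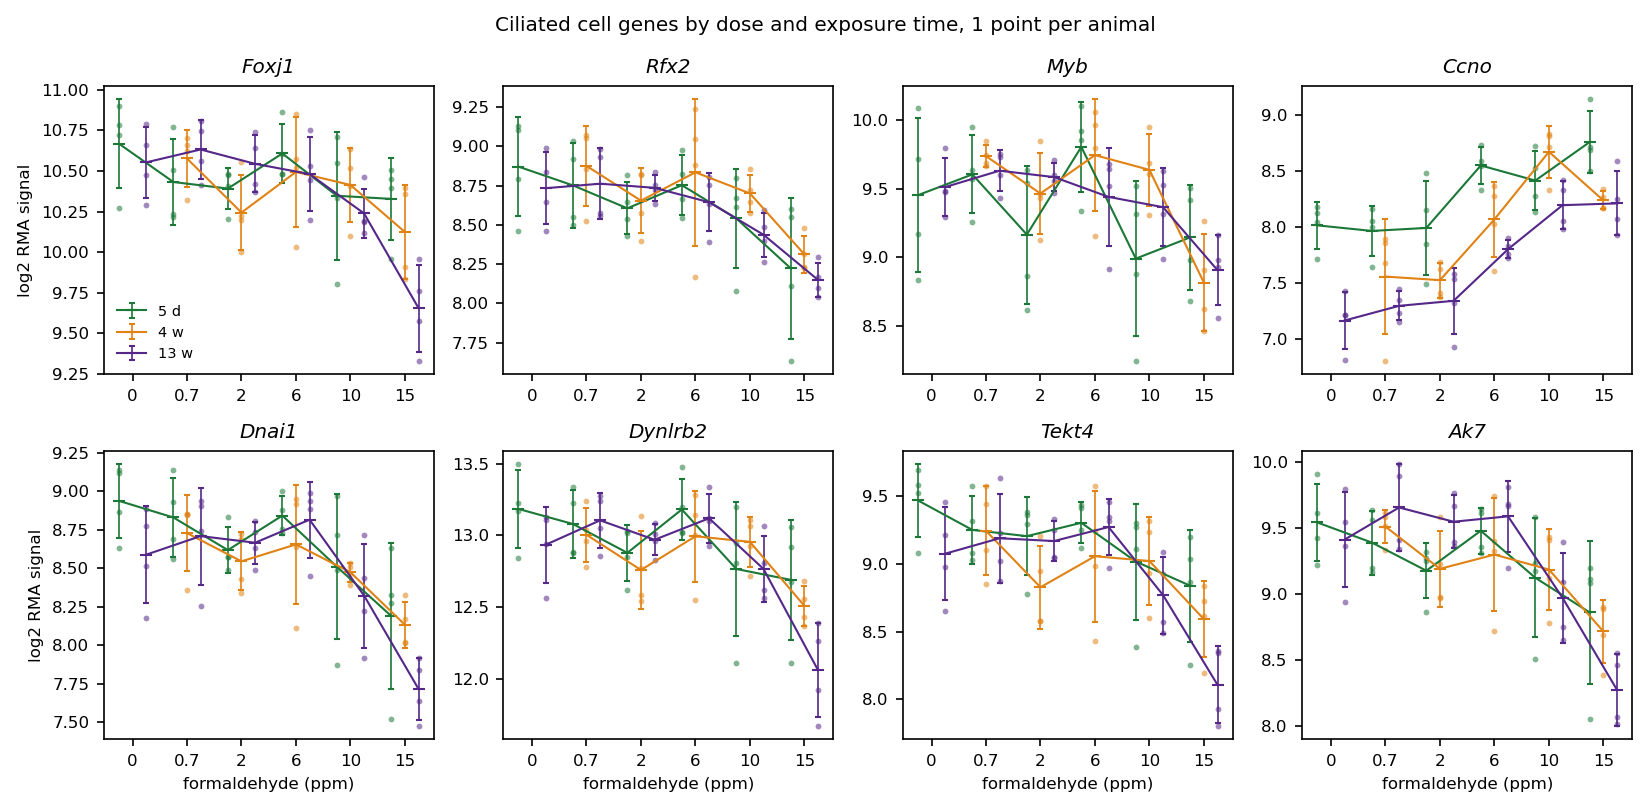
Log2 signal (y axes) of 4 regulators and 4 structural genes by formaldehyde dose (x axes, ppm) at 5 d, 4 w and 13 w. Points are animals, lines join group means and bars are SD (n = 4). Foxj1 runs from 9.33 to 9.96 at 15 ppm at 13 w, below all 0 ppm animals, while Ccno at 15 ppm lies above its reference at each time.

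All 5 measured dynein genes fell at 5 d and at 13 w, and 4 of them at 4 w. Dnah7, a heavy chain of the inner arm, was below the reference in every animal at each time. At 5 d it had 7.49, 8.26, 8.35 and 8.55 at 15 ppm and 8.72, 8.88, 9.12 and 9.28 at 0 ppm (-0.84 ± 0.22 SE, limma adjusted p = 0.00152). Its 4 w signals were 7.34, 7.86, 7.95 and 7.96 at 15 ppm and 8.50, 8.74, 8.76 and 8.76 at 0.7 ppm (-0.91 ± 0.22 SE, limma adjusted p = 0.00059). At 13 w both groups sat lower, with 7.21, 7.30, 7.61 and 7.68 at 15 ppm and 8.00, 8.23, 8.35 and 8.47 at 0 ppm. Its change then was -0.81 ± 0.22 (SE, limma adjusted p = 0.00166), close to that at 5 d.

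Dnai1, the intermediate chain of the outer arm and the 1 outer arm gene measured, had 7.47, 7.63, 7.84 and 7.91 at 15 ppm at 13 w, against 8.18, 8.52, 8.77 and 8.89 at 0 ppm. No values overlapped, and Dnai1 fell by 0.87 ± 0.19 (SE, limma adjusted p = 0.00015). At 5 d it had 7.52, 8.27, 8.33 and 8.63 at 15 ppm and 8.63, 8.86, 9.12 and 9.14 at 0 ppm, meeting at 1 value, and fell by 0.75 ± 0.19 (SE). It also fell at 4 w, by 0.60 ± 0.19 (SE, limma adjusted p = 0.0108). Dynlrb2, a roadblock light chain found in ciliated cells, had 11.67, 11.92, 12.26 and 12.39 at 15 ppm and 12.56, 12.94, 13.11 and 13.13 at 0 ppm at 13 w. These groups stood apart, and Dynlrb2 fell by 0.87 ± 0.18 (SE, limma adjusted p = 6.4e-05), after 0.49 ± 0.18 at 5 d and 0.50 ± 0.18 at 4 w. Its paralog Dynlrb1, a light chain of cytoplasmic dynein in most cells, fell by 0.18, 0.14 and 0.25 at 5 d, 4 w and 13 w.

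Dnali1, a light chain of the inner arm, had 8.85, 9.22, 9.29 and 9.72 at 15 ppm and 9.92, 9.94, 10.24 and 10.31 at 0 ppm at 13 w, and fell by 0.84 ± 0.22 (SE, limma adjusted p = 0.00134). It was also called at 5 d (-0.55 ± 0.22 SE, limma adjusted p = 0.0437) and not at 4 w (-0.50 ± 0.22 SE, limma adjusted p = 0.0714). A dimmer Dnali1 probe set was called at none of these times. Dnah1, the remaining inner arm heavy chain, fell by 0.63, 0.45 and 0.63 at 5 d, 4 w and 13 w.

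Tektins 1, 2 and 4 all fell at 13 w. Tekt4 had 7.80, 7.93, 8.34 and 8.36 at 15 ppm and 8.65, 8.98, 9.21 and 9.46 at 0 ppm, with no overlap. It fell by 0.97 ± 0.22 (SE, limma adjusted p = 0.00018) then, by 0.65 ± 0.22 at 4 w and by 0.63 ± 0.22 at 5 d. Tekt1 had 9.34, 9.67, 9.90 and 9.96 at 15 ppm and 10.22, 10.30, 10.65 and 10.80 at 0 ppm at 13 w. It fell there by 0.77 ± 0.20 (SE, limma adjusted p = 0.00105) and by 0.49 ± 0.20 at 5 d (SE, limma adjusted p = 0.0443), while the -0.44 of 4 w was not called. Tekt2 changed by -0.55 and -0.56 at 5 d and 4 w without a call and fell by 0.76 at 13 w.

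Both measured radial spoke head genes fell at 13 w. Rsph1 had 9.10, 9.43, 9.66 and 10.05 at 15 ppm and 10.05, 10.41, 10.47 and 10.62 at 0 ppm, touching at 1 value, and fell by 0.83 ± 0.20 (SE, limma adjusted p = 0.00065). Rsph9 had 9.20, 9.54, 9.79 and 9.87 at 15 ppm and 10.17, 10.21, 10.43 and 10.52 at 0 ppm, and fell by 0.73 ± 0.18 (SE, limma adjusted p = 0.0007). At 5 d Rsph1 was called (-0.56) and Rsph9 was not (-0.34), and at 4 w Rsph9 was called (-0.55) and Rsph1 was not (-0.43). These differences between the 2 genes were not tested.

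Among the rulers and the nexin link, Ccdc113 fell at each time and Ccdc40, a partner in the ruler that sets the axonemal repeat, fell at 4 w and 13 w. Ccdc113 had 8.43, 8.64, 8.82 and 8.93 at 15 ppm and 8.97, 9.26, 9.51 and 9.79 at 0 ppm at 13 w, and fell by 0.68 ± 0.20 (SE, limma adjusted p = 0.00399). Drc1, a base component of the nexin link, had 7.29, 7.51, 7.61 and 8.22 at 15 ppm and 7.89, 8.22, 8.31 and 8.52 at 0 ppm. Those groups overlapped, and its change of -0.58 ± 0.25 (SE) missed the threshold at 13 w (limma adjusted p = 0.0556), as did -0.49 at 5 d and -0.36 at 4 w.

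The largest change of any structural member was that of Ak7, an axonemal adenylate kinase, at 13 w. Ak7 had 8.01, 8.07, 8.47 and 8.55 at 15 ppm and 8.94, 9.36, 9.55 and 9.79 at 0 ppm, and fell by 1.14 ± 0.22 (SE, limma adjusted p = 1.7e-05), 2.20-fold. At 5 d it had 8.05, 9.08, 9.11 and 9.20 at 15 ppm, against 9.22, 9.43, 9.61 and 9.91 at 0 ppm. Even there no animal crossed over, and Ak7 fell by 0.68 ± 0.22 (SE, limma adjusted p = 0.00997), with 0.79 ± 0.22 at 4 w. Efhc2, a protein of the doublet lumen, had 6.47, 6.56, 6.88 and 6.97 at 15 ppm and 7.33, 7.43, 7.62 and 7.79 at 0 ppm at 13 w. It fell by nearly the same amount at each time, 0.81, 0.80 and 0.83 at 5 d, 4 w and 13 w. Armc3, an armadillo repeat protein of ciliated cells, fell by 0.65, 0.65 and 0.82, and Ropn1l, of the radial spoke, fell at 4 w (0.71) and 13 w (0.77). Tppp3, which bundles microtubules, and Lrrc23, of the radial spoke, were called at 13 w alone, at -0.72 and -0.49. Cetn2, a centrin of basal bodies, fell at 4 w (0.39) and 13 w (0.43), and its paralog Cetn3 fell by 0.17, 0.25 and 0.34 at 5 d, 4 w and 13 w.

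The 4 measured intraflagellar transport genes fell at every time. Ift57 had 9.27, 9.33, 9.46 and 9.79 at 15 ppm and 9.95, 10.02, 10.27 and 10.43 at 0 ppm at 13 w. It fell by 0.70 ± 0.14 (SE, limma adjusted p = 2.7e-05) then and by 0.42 ± 0.14 and 0.44 ± 0.14 at 5 d and 4 w. Ift81 had 9.26, 9.42, 9.60 and 9.84 at 15 ppm and 10.03, 10.08, 10.30 and 10.39 at 0 ppm at 13 w, and fell by 0.67 ± 0.15 (SE, limma adjusted p = 0.00023). The 2 other Ift81 probe sets also fell at all 3 times, by 0.58 to 0.72 and by 0.68 to 0.80. Ift88 fell by 0.30 to 0.44 and Ift172 by 0.36 to 0.46 over the 3 times. Zmynd10, which helps assemble dynein arms in the cytoplasm, had 8.39, 8.71, 8.95 and 8.95 at 15 ppm and 9.19, 9.33, 9.62 and 9.63 at 0 ppm at 13 w. It fell by 0.69 ± 0.18 at 13 w and 0.46 ± 0.18 at 4 w (SE), and the -0.41 of 5 d was not called (limma adjusted p = 0.0624).

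**Figure D3:**
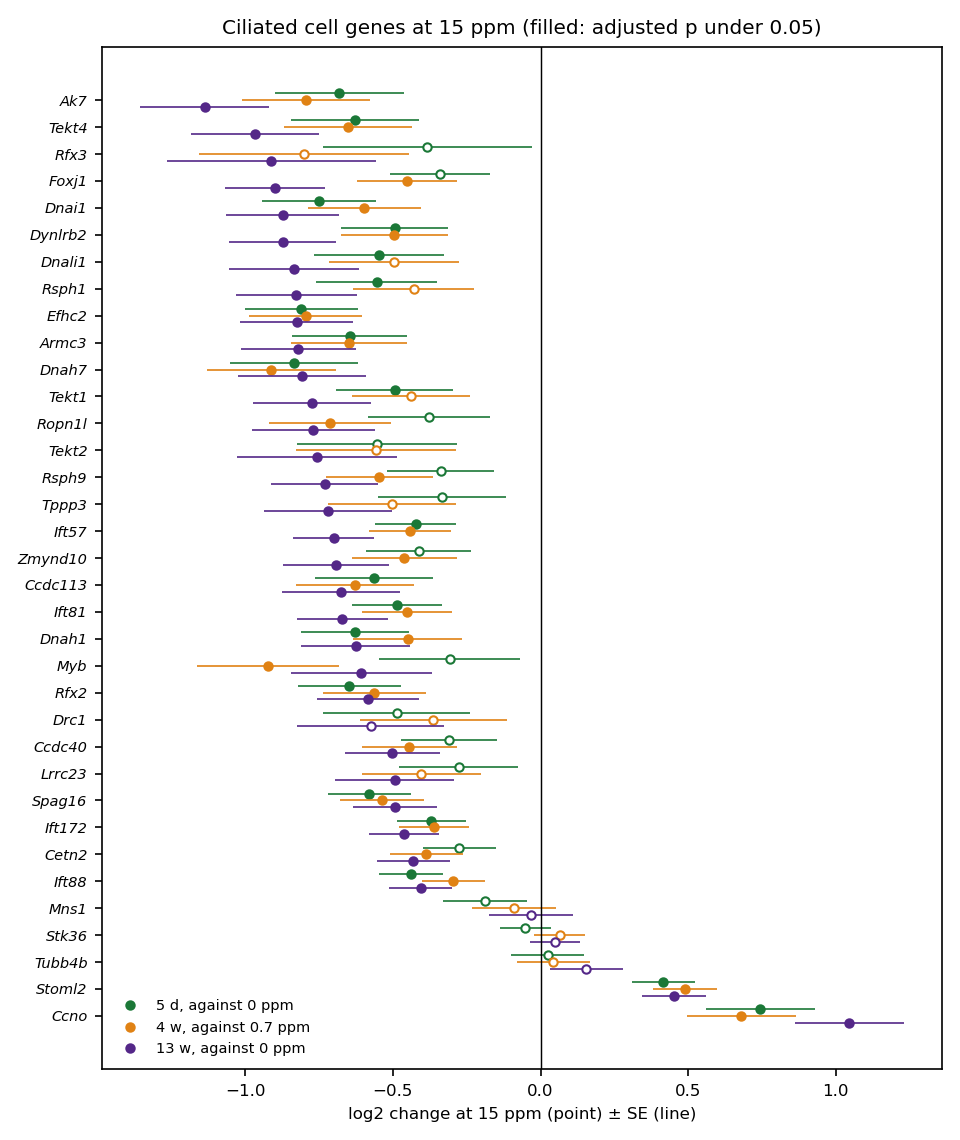
Log2 change (x axis) of the 35 measured genes (y axis) at 15 ppm against 0 ppm at 5 d and 13 w and against 0.7 ppm at 4 w, with the SE as a line and filled points where the adjusted p is under 0.05. Most points lie left of 0, 29 of them filled at 13 w, and Ccno and Stoml2 lie right of 0 at each time.

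The members that did not fall had different roles. Tubb4b, the tubulin of the axoneme's doublets, had 13.18, 13.21, 13.25 and 13.29 at 15 ppm and 12.75, 13.05, 13.16 and 13.34 at 0 ppm at 13 w. Its values overlapped, and its changes of 0.02, 0.04 and 0.15 (SE 0.12) were not called. Tubulin is shared by all cells, and the paralogs Tubb2a and Tubb5 rose by 0.84 and 0.88 at 13 w. Mns1, a protein of the doublet lumen, changed by -0.19, -0.09 and -0.03 at 15 ppm. It had 7.20, 7.52, 7.55 and 7.69 at 15 ppm and 7.46, 7.46, 7.58 and 7.59 at 0 ppm at 13 w, with overlap. Stoml2, a stomatin-like protein of the mitochondrial inner membrane, had 9.44, 9.56, 9.61 and 9.73 at 15 ppm and 9.07, 9.12, 9.16 and 9.17 at 0 ppm at 13 w. It rose without overlap by 0.45 ± 0.11 (SE, limma adjusted p = 0.0004), and by 0.42 and 0.49 at 5 d and 4 w.

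The 2 central pair genes had low signals. Stk36, a kinase needed for central pair assembly, ran from 4.77 to 4.98 at 15 ppm and from 4.72 to 4.95 at 0 ppm at 13 w, and was called at no dose. Spag16, a central pair component, had 5.21, 5.24, 5.27 and 5.35 at 15 ppm at 13 w and 5.42, 5.72, 5.76 and 6.14 at 0 ppm. It fell at each time without overlap, by 0.58, 0.54 and 0.49 (SE 0.14), and was the 1 member called lower at 6 ppm. At 4 w it had 4.74, 5.29, 5.40 and 5.49 at 6 ppm, against 5.71, 5.77, 5.86 and 6.30 at 0.7 ppm. That made a fall of 0.68 ± 0.14 (SE, limma adjusted p = 0.00251), close to the 0.64 of 10 ppm. A second Spag16 probe set with a mean of 3.95 was called at none of the 3 times at 15 ppm.

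Below 15 ppm few members were called. At 10 ppm and 5 d, 4 fell and 0 rose (5.79% and 9.75% of all genes). Those were Dnah7 (-0.63), Spag16 (-0.60), Efhc2 (-0.58) and Armc3 (-0.64). Of these 4 calls, 2 were left without animal 208 of 0 ppm or animal 330 of 10 ppm, and 1 without animal 210 of 0 ppm or animal 329 of 10 ppm. At 10 ppm Spag16 fell and Ccno rose at 4 w (5.75% and 9.03% of all genes), and at 13 w Ccno rose alone (12.5% and 13.8%), with 1 member called lower besides without animal 229 of 0 ppm or animal 341 of 10 ppm. With 0.7 ppm as the reference in place of 0 ppm, 0 members fell and 1 rose at 10 ppm and 5 d. At 10 ppm and 13 w, 6 fell and 2 rose with that reference. These counts are given without the share of all genes in those fits, so they are not read against a background. Against the references of the main fit, the median change at 10 ppm was -0.32, -0.15 and -0.15 at 5 d, 4 w and 13 w. At 6 ppm and 13 w, Ccno and Mns1 rose and 0 members fell (7.54% and 4.68% of all genes). Mns1 had 7.81, 7.89, 7.99 and 8.05 at 6 ppm against 7.46, 7.46, 7.58 and 7.59 at 0 ppm, a rise of 0.41 ± 0.14 (SE, limma adjusted p = 0.0461). Leaving out animal 229 of 0 ppm removed both of these calls, and leaving out any of 225, 226 or 230 of 0 ppm or 316, 317 or 320 of 6 ppm removed 1. At 6 ppm and 4 w, Spag16 fell alone (1.24% of all genes lower and 2.05% higher), and was not called without animal 310 of 6 ppm. At 6 ppm and 5 d, limma called 0 of 35 (5.3% of all genes lower and 3.54% higher), and 2 had an unadjusted p under 0.05.

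Limma called 0 members at 2 ppm at each of the 3 times and 0 at 0.7 ppm at 5 d and 13 w. At 4 w 0.7 ppm was the reference. The background was as low. At 0.7 ppm it was 0.0% at 5 d and at 13 w, in both directions. At 2 ppm 0.0281% of all genes were higher at 5 d and 0.00703% at 13 w, and at 4 w 0.00703% were lower and 0.0141% higher. Even so the members leaned one way together. At 5 d, 34 of 35 changes were below 0 at 0.7 ppm and 35 of 35 at 2 ppm, with medians of -0.18 and -0.29. At 13 w, 3 of 35 and 4 of 35 were below 0, with medians of 0.13 and 0.14. At 2 ppm and 4 w, 34 of 35 were below 0 with a median of -0.27. The number with an unadjusted p under 0.05 was 0 and 5 at 5 d, 8 at 2 ppm at 4 w, and 1 and 1 at 13 w. Since members share the same arrays and move together, these are not separate observations, and each set of signs leans on 1 group of 4 reference animals.

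The order of doses was uneven at 5 d. The structural mean averaged 9.36 ± 0.14 at 2 ppm, 9.60 ± 0.11 at 6 ppm and 9.34 ± 0.37 at 10 ppm, against 9.66 ± 0.21 at 0 ppm (SD, n = 4 each). The 4 w groups averaged 9.23 ± 0.25 at 2 ppm and 9.43 ± 0.33 at 6 ppm, against 9.52 ± 0.14 at 0.7 ppm (SD, n = 4 each). The comparison of 6 ppm with 2 ppm, added after these values were seen, had a median of 0.24 at 5 d and 0.21 at 4 w. Limma called 0 members in it at both times, where 1.95% of all genes were lower and 1.1% higher at 5 d and 1.23% lower and 1.71% higher at 4 w. At those times 6 and 5 members had an unadjusted p under 0.05. At 13 w the same comparison had a median of 0.04, with 0 members called (1.72% and 7.1% of all genes) and 1 at that level. Myb had 9.34, 9.86, 9.92 and 10.11 at 6 ppm and 8.62, 8.86, 9.55 and 9.64 at 2 ppm at 5 d, overlapping, for a difference of 0.64 ± 0.24 (SE, limma adjusted p = 0.115).

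The step between the 2 highest doses was called at 13 w. There, 15 members were lower at 15 ppm than at 10 ppm and 0 were higher (4.07% and 8.55% of all genes), with a median of -0.54. Foxj1 had 9.33, 9.57, 9.76 and 9.96 at 15 ppm and 10.12, 10.19, 10.19 and 10.46 at 10 ppm, and fell by 0.58 ± 0.17 (SE, limma adjusted p = 0.0149). Ropn1l (-0.80), Armc3 (-0.77), Tekt1 (-0.76), Dynlrb2 (-0.70), Ak7 (-0.70) and Ift172 (-0.50) were among the others. The count fell to 2 without animal 378 and rose to 24 without animal 375, both of 15 ppm, was 6 without animal 379 of the same group, and was 4 and 6 without animals 341 and 348 of 10 ppm. At 4 w, Myb was the 1 member lower at 15 ppm than at 10 ppm (1.18% of all genes lower and 5.11% higher), by 0.82 ± 0.24 (SE, limma adjusted p = 0.0275), and it was not called without any one of animals 331 and 333 of 10 ppm or 368 and 369 of 15 ppm. At 5 d limma called 0 (8.0% of all genes lower and 7.18% higher), and 2 had an unadjusted p under 0.05. Without animal 359 of 15 ppm, 2 were lower and 1 was higher there. Between 10 and 6 ppm limma called 0 members at each time, and 10, 1 and 11 had an unadjusted p under 0.05 at 5 d, 4 w and 13 w. The background for that step was 0.106% lower and 0.914% higher at 5 d, 0.577% higher at 4 w, and 1.91% lower and 2.07% higher at 13 w. In that step 1 member was called lower at 5 d without animal 298 of 6 ppm or animal 324 or 330 of 10 ppm, and 1 at 13 w without animal 341 of 10 ppm.

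**Figure D4:**
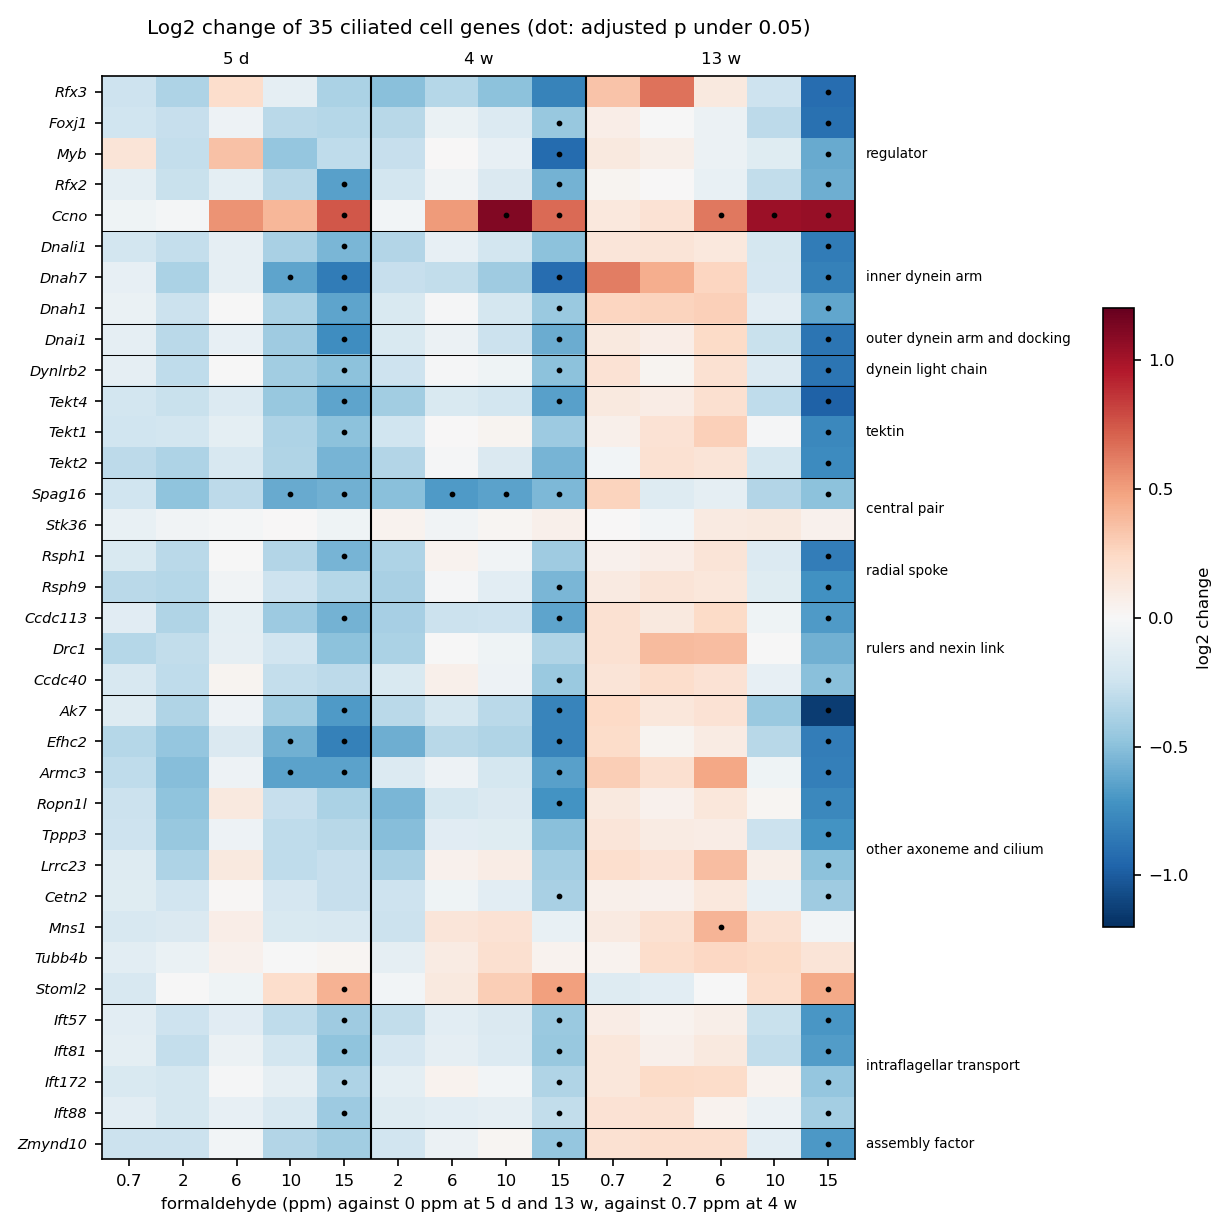
Log2 change of the 35 measured genes (rows, by role) at each dose (columns, ppm) against 0 ppm at 5 d and 13 w and against 0.7 ppm at 4 w, with a dot where the adjusted p is under 0.05. Blue is lower and red is higher: the 15 ppm columns hold 18, 22 and 29 falls at 5 d, 4 w and 13 w, and the columns up to 10 ppm hold few dots.

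Exposure time was tested on the responses themselves. The 15 ppm response of 13 w less that of 5 d had a median of -0.19 over members, and limma called 0 of 35 for that difference, where 6.09% and 9.21% of all genes were called lower and higher. The closest was Foxj1, whose responses differed by -0.56 ± 0.24 (SE, unadjusted p = 0.0234, limma adjusted p = 0.111), the 1 member with an unadjusted p under 0.05. Without animal 356 of 15 ppm at 5 d, 1 member was called lower. Against 0.7 ppm, the 15 ppm response of 13 w less that of 4 w had a median of -0.30, with 0 members called (0.0492% of all genes lower and 0.0141% higher) and 2 at an unadjusted p under 0.05. The 4 w response less that of 5 d had a median of -0.20, with 0 called (1.86% of all genes lower and 1.58% higher) and 1 at that level. At 2, 6 and 10 ppm limma called 0 members for any difference of responses between times, with 6, 0 and 2 at an unadjusted p under 0.05 for 13 w less 5 d. For 4 w less 5 d that number was 1 at 6 ppm and 1 at 10 ppm, and for 13 w less 4 w it was 0 at both. Those contrasts called at most 0.0141% of all genes in 1 direction. The SE of a difference of responses had a median of 0.26.

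The reference groups themselves differed between times. At 0 ppm, 34 of 35 members were below 0 at 13 w relative to 5 d, with a median of -0.28, and 13 had an unadjusted p under 0.05, though Ccno alone was called (1.62% of all genes lower and 0.626% higher). Without animal 204 of 5 d, 2 were called. Dnah7 changed by -0.74 ± 0.22 (SE, limma adjusted p = 0.0537). At 15 ppm, limma called 0 members between 13 w and 4 w (0.781% of all genes lower and 0.605% higher), with a median of -0.33 and 15 at an unadjusted p under 0.05. Between 4 w and 5 d it also called 0 (6.08% lower and 4.56% higher), with a median of -0.15 and 1 at that level, and 1 was called without animal 354 of 5 d.

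Markers of other cells moved at the same doses. At 5 d the mean of 8 leukocyte markers was 10.46 ± 0.21 at 15 ppm and 8.76 ± 0.24 at 0 ppm, with 7 of 8 higher. At 4 w it was 9.14 ± 0.19 at 15 ppm and 8.39 ± 0.14 at 0.7 ppm (7 of 8 higher), and at 13 w 8.39 ± 0.24 at 15 ppm and 8.58 ± 0.28 at 0 ppm, with 0 of 8 called and 0 at an unadjusted p under 0.05 (SD, n = 4 each). Fitted with the leukocyte mean as a covariate, limma called 0 members at 5 d, with 2 at an unadjusted p under 0.05, a median of -0.20 and a median SE of 0.32. With that covariate 7 fell and 2 rose at 4 w (median -0.36), and 30 fell and 2 rose at 13 w (median -0.72). In these fits 8.27% of all genes were lower and 7.51% higher at 5 d, 13.1% and 17.0% at 4 w, and 21.0% and 24.0% at 13 w. At 13 w the leukocyte means of the 15 ppm and 0 ppm animals overlapped. At 5 d every 15 ppm animal had a higher leukocyte mean than every other animal, and dose and leukocyte signal cannot be told apart there. At 4 w the leukocyte means ran from 8.97 to 9.39 at 15 ppm and from 8.24 to 8.52 at 0.7 ppm, without overlap. Dose and leukocyte signal therefore cannot be told apart at 4 w either.

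**Figure D5:**
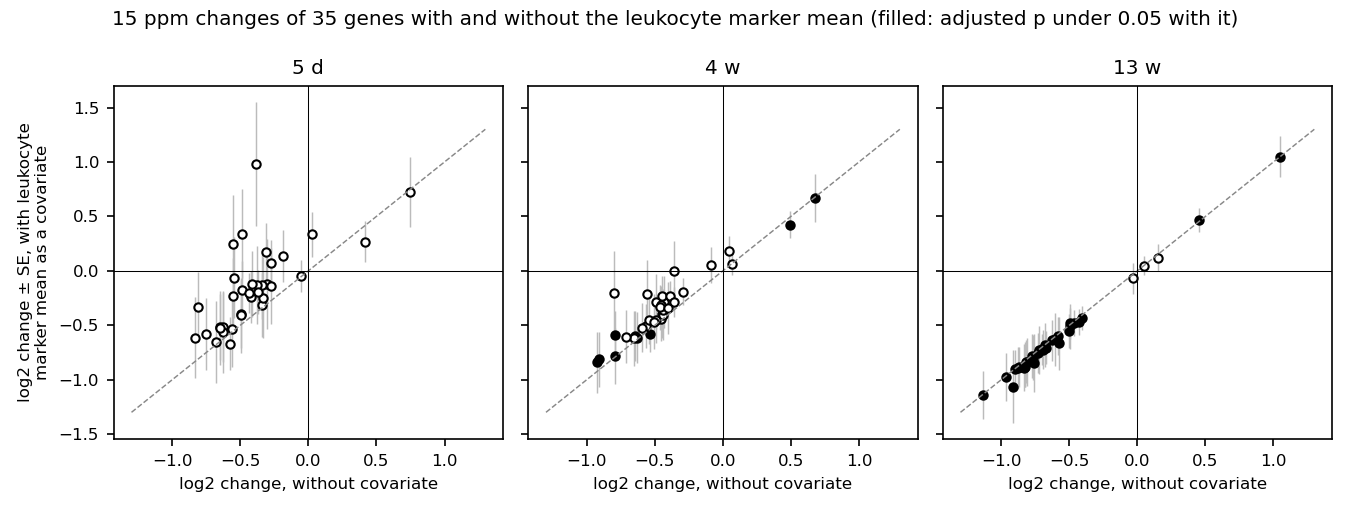
Log2 change of the 35 genes at 15 ppm with the leukocyte marker mean as a covariate (y axes, with SE) against the change without it (x axes), at 5 d, 4 w and 13 w. Points on the dashed line are equal in both fits, and filled points have an adjusted p under 0.05 with the covariate: 0 at 5 d, 9 at 4 w and 32 at 13 w.

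The 7 squamous markers averaged 11.20 ± 0.43 at 15 ppm and 9.68 ± 0.52 at 0 ppm at 5 d, 11.97 ± 0.23 at 15 ppm and 9.19 ± 0.57 at 0.7 ppm at 4 w, and 12.49 ± 0.26 at 15 ppm and 9.36 ± 0.27 at 0 ppm at 13 w (SD, n = 4 each). Of them 4, 7 and 7 rose at the 3 times. Of 6 basal markers, 2 rose and 2 fell at 5 d, 3 rose and 0 fell at 4 w, and 5 rose and 0 fell at 13 w. Of 8 cell division markers, 7 rose and 1 fell at each time. Of 7 secretory markers 0, 1 and 4 fell and 0 rose at the 3 times. The mean of 7 general epithelial markers was 12.33 ± 0.05 at 15 ppm and 12.24 ± 0.02 at 0 ppm at 13 w. Of these 7, 2 rose and 2 fell at 5 d and at 4 w, and 3 rose and 2 fell at 13 w. The part of squamous, basal and dividing cells in the falls of ciliated cell genes was not tested.

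Olfactory neuron markers were high on these arrays although the labels say the olfactory lining was discarded. Olfactory neurons carry cilia of their own, which are not motile. The mean of the 6 markers was 9.86 ± 1.57 at 15 ppm and 10.35 ± 1.39 at 0 ppm at 13 w, and 11.03 ± 0.95 at 15 ppm and 11.42 ± 0.53 at 0 ppm at 5 d (SD, n = 4 each). Limma called 0 of the 6 at each of the 3 times, and 0 had an unadjusted p under 0.05. With their mean as a covariate, added after seeing the data, 21, 22 and 30 members fell at 5 d, 4 w and 13 w (22.0%, 18.3% and 23.3% of all genes).

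Other genes of cilia were also measured. A separate list of 134 such genes, among them basal body, transition zone, ciliary transport and tubulin genes, had 81 on the array. At 15 ppm, 42 of 81 fell and 4 rose at 5 d, 36 fell and 5 rose at 4 w, and 47 fell and 6 rose at 13 w. The shares of all genes lower and higher were 19.5% and 18.3% at 5 d, 16.1% and 21.3% at 4 w, and 20.6% and 23.5% at 13 w. Medians of the list were -0.41, -0.39 and -0.53. The genes named next were called lower at each time, with changes in the order 5 d, 4 w and 13 w. Ift46, a transport subunit, changed by -0.54, -0.45 and -0.71, and Ift122 by -0.53, -0.39 and -0.54. Cc2d2a, of the transition zone at the base of the cilium, changed by -0.79, -0.82 and -0.83. Bbs2, of the BBSome that sorts ciliary cargo, changed by -0.51, -0.56 and -0.74. Odad4, of the docking complex of the outer dynein arm, changed by -0.51, -0.85 and -0.97. Fam216b changed by -0.94, -1.11 and -1.53.

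The genes of that list that rose included some with tasks outside the cilium. Tuba4a, an alpha tubulin, rose by 0.83, 1.08 and 1.37 at 5 d, 4 w and 13 w. E2f4 acts with Mcidas in centriole multiplication and also in the cell cycle. It rose by 0.31 at 5 d, 0.47 at 4 w and 0.39 at 13 w. Plk4 is the kinase that starts centriole duplication in dividing cells too. It rose by 0.72 at 4 w and 1.63 at 13 w, while its change of 0.46 at 5 d was not called. Among paralogs of the regulators, Mybl1 rose by 1.18, 1.11 and 1.75 and Mybl2, a factor of dividing cells, by 0.76, 1.01 and 1.34 at 5 d, 4 w and 13 w. Rfx1 was called at none of these times, with changes of -0.06 and -0.10 at 5 d and 4 w.

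Over the 17 group means, 25 of the 35 members had a Pearson correlation of at least 0.9 with the mean of the other members, and 6 were under 0.7. These 6 were Stoml2 (-0.69), Ccno (-0.24), Stk36 (0.15), Tubb4b (0.27), Spag16 (0.57) and Mns1 (0.61). Zmynd10 (0.98), Dynlrb2 (0.98), Tekt4 (0.97) and Rsph9 (0.97) lay closest to the common course. Among the regulators the value was 0.95 for Foxj1, 0.88 for Rfx3, 0.85 for Rfx2 and 0.74 for Myb. Outside both lists, the 10 genes most like the members over those means were Spmip6, Dync2li1, Ccdc181, Cdhr4, Tsga10, Pierce1, Liat1, Sanbr, Chn1 and Cfap276, with correlations of 0.96 to 0.98. These values describe 17 points that share arrays between genes and carry no test. Spmip6, the closest, changed by -0.53, -0.61 and -0.90 at 15 ppm at 5 d, 4 w and 13 w, and Dync2li1, a subunit of the dynein that drives intraflagellar transport, by -0.55, -0.43 and -0.56.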

How the data were processed

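Gene expression was measured on 68 Affymetrix Rat230_2 arrays, 1 per rat, in 17 groups of 4 by dose and time. Per the submitters' processing notes, the authors ran RMA after GCOS 1.0, and its deposited log2 signals were used without further scaling. Of 31099 probe sets, 20826 were named by 1 gene in the platform annotation, with symbols updated through RefSeq, 436 by several and 9831 by none. Each of 14217 genes was read from its brightest probe set, by mean signal, and 7 members had more than 1.

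The 17 group means were estimated together with lmFit and eBayes of limma 3.58.1 (R 4.3.3, Python 3.11.15 for the summaries), which left 51 residual and 2.85 prior degrees of freedom. Each contrast was adjusted by Benjamini-Hochberg across its genes, and calls are those whose adjusted p was under 0.05. The number of arrays limits the precision: the median SE of a change was 0.104 over all genes. The fitting code was tested on simulated data. Each rat was a replicate, taken as independent.

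The members and lists were chosen with earlier results of these data known. Values per animal are given for the regulators and for the 2 structural genes of each role with the largest change at 15 ppm, and Stoml2, Tubb4b and Mns1 were added after their values were seen. Of the other cilium list, the 5 genes with the smallest adjusted p at 15 ppm at each time are named, and 10 genes by their correlation with the members. The treatment field reads 5 days in 19 of 20 samples of 4 w, whose other labels (title, description, time) give 4 w and were followed. The series text gives 1 week for the time that the labels call 5 d. Alternatives covered scaling, probe set choice, a signal filter, array weights, the prior, the arrays in the fit, RNA quality, leukocyte and olfactory marker covariates, the adjustment, a 1.5-fold limit, the reference and each animal left out.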

Additional observations from a re-analysis of the deposited data

Results flagged for a closer look

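Groups of 4 animals were formed by the genes given per animal, other than Tubb4b and Mns1, at 15 ppm and in the references. Of 138 such groups, 5 held 1 animal far from the other 3 by Dixon's test of the gap over the range. Chance alone marks about 5% of such groups. Dnah7 was 7.34 in animal 365 of 15 ppm at 4 w, in a group that ran up to 7.96. In animal 245 of 0.7 ppm at 4 w, Dnah7 was 8.50, in a group up to 8.76, and Dnai1 was 8.36, in a group up to 8.86. Dnali1 was 9.89 in animal 204 of 0 ppm at 5 d, where the others reached 10.6. Ak7 was 8.05 in animal 356 of 15 ppm at 5 d, where the others reached 9.2. Each of these was the lowest of its group.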

How the results depend on the processing

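The 3 fits of 15 ppm kept a majority of falls among the called members under every alternative that left any call. Counts below are of members called in both directions. They are given without the share of all genes in each fit, so they are not read against a background. With the leukocyte mean as a covariate, 0 were called at 15 ppm at 5 d, 9 at 4 w, 1 for 10 against 6 ppm at 13 w and 2 at 0 ppm for 13 w against 5 d. With the RNA integrity number, 17 were called at 15 ppm at 13 w, 2 at 10 ppm at 5 d, 2 at 10 ppm at 13 w and 2 at 0 ppm for 13 w against 5 d. With at least 1.5-fold, 9, 10 and 1 were called at 15 ppm at 5 d, 15 ppm at 4 w and 6 ppm at 13 w. With 0.7 ppm as the reference, 9 were called at 15 ppm and 1 each at 6 and 10 ppm at 5 d, and 8 at 10 ppm and 0 at 6 ppm at 13 w. Adjusted over all contrasts, 15 were called at 15 ppm at 4 w, 2 at 2 ppm at 4 w, 2 at 10 ppm at 5 d, 1 at 2 ppm at 5 d, 1 at 6 ppm at 13 w, 1 each for 10 against 6 ppm at 5 d and 4 w, and 2 at 0 ppm for 13 w against 5 d. Array weights raised the step from 10 to 15 ppm to 29 at 13 w, 5 at 4 w and 1 at 5 d, and gave 1 at 2 ppm and 2 at 6 ppm at 5 d, 2 at 10 ppm at 13 w, 5 and 1 for 6 against 2 ppm at 5 d and 13 w, 1 for 10 against 6 ppm at 13 w, 1 for the 15 ppm response of 13 w less 5 d, 9 at 0 ppm for 13 w against 5 d, and 8 at 15 ppm for 13 w against 4 w. Cyclic loess gave 1 at 6 ppm at 5 d, 1 at 6 ppm and 2 at 10 ppm at 13 w, 1 for 15 against 10 ppm at 5 d and 1 at 15 ppm for 4 w against 5 d. The actin covariate gave 1 at 6 ppm and 2 at 10 ppm at 13 w, 1 for 15 against 10 ppm at 5 d and 1 at 15 ppm for 4 w against 5 d. The olfactory covariate gave 1 at 6 ppm at 5 d, 2 at 10 ppm at 13 w, 2 for 15 against 10 ppm at 4 w and 1 at 15 ppm for 4 w against 5 d. Averaging probe sets gave 1 at 6 ppm at 13 w and 0 at 0 ppm for 13 w against 5 d, and the signal filter 1 at 6 ppm at 5 d and 2 at 0 ppm for 13 w against 5 d. Median centring, and the arrays with an RNA integrity number, each gave 1 at 6 ppm at 13 w. Only the arrays of the times compared gave 2 at 10 ppm at 5 d. The causes were not tested.

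Leaving out 1 animal at a time gave 8 to 25 at 15 ppm at 5 d, 13 to 27 at 4 w and 26 to 32 at 13 w, 1 to 6 at 10 ppm at 5 d, 0 to 1 at 6 ppm at 4 w, 0 to 2 at 6 ppm and 1 to 2 at 10 ppm at 13 w. For 10 against 6 ppm it gave 0 to 1 at 5 d and 13 w, for 15 against 10 ppm 0 to 3 at 5 d, 0 to 1 at 4 w and 2 to 24 at 13 w, and 0 to 1 for the 15 ppm response of 13 w less 5 d. It gave 1 to 2 at 0 ppm for 13 w against 5 d and 0 to 1 at 15 ppm for 4 w against 5 d. Of the changes of single members at 15 ppm, 0 changed sign with a call under any alternative, and outside the animals left out 1358 kept their call or lack of one, 152 lost a call and 27 gained one. No paired analysis was possible because the replicate numbers are animal numbers that the groups do not share. The 4 animals a group and low signals of Stk36 and Spag16 limit what could be detected.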
